A study of Arabidopsis thaliana with 12 samples.

Results

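Transcripts of CsPYL1-5m seedlings were compared with those of WT (Col-0) seedlings in the absence of the ligand, to ask whether a plant carrying the engineered receptor already differs at rest in its abscisic acid (ABA) genes or in its growth genes. Genes listed at 1 TPM or more in all 3 replicates of either genotype were compared, which gave 19530 of the 37336 genes in the tables. Of these, 19057 passed in both genotypes, 225 in WT only and 248 in CsPYL1-5m only. TPM is the reads of a gene divided by its length, with each sample scaled to the same total.

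The 6 samples used here were 3 of WT and 3 of CsPYL1-5m seedlings, all of the Col-0 background and all collected 3 h after a mock treatment, which the labels give as DMSO. The seedlings were 12 days old according to the sample labels and 10 days old according to the methods, and were grown in liquid medium. The other 6 samples of the series received 5 μM iSB09, a synthetic ABA agonist, and are used only to see whether a genotype difference was also present there. CsPYL1-5m is a receptor of sweet orange with engineered changes, expressed with an HA tag from the constitutive 35S promoter in homozygous T3 plants selected by the GFP marker of the vector pAlligator2. Whether the 3 CsPYL1-5m samples came from a single line is not given in the sources used here, and no line with the unmutated receptor or with an empty vector was among the samples analysed here. A difference made by the receptor therefore cannot be told apart from one made by the transformation or the insertion site. The receptor is a Citrus gene, so its own transcript has no row in an Arabidopsis table.

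Without ABA, clade A protein phosphatases type 2C hold SnRK2 kinases inactive. An ABA-bound PYR/PYL receptor inhibits the phosphatases, which frees the kinases to phosphorylate bZIP transcription factors of the ABF family, and these bind ABA-responsive elements (ABRE) in the promoters of stress and seed genes. Seed storage proteins accumulate in the maturing embryo under the control of ABA and of B3 factors that bind the RY element, and their genes are close to silent in seedlings. ABA also closes stomata, restrains growth and, through a feedback, raises the transcripts of its own phosphatases.

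The libraries of the genotypes differed in depth, with 21522480 to 21677392 reads on genes in WT and 29158403 to 30696833 in CsPYL1-5m, so that depth, any batch tied to it and genotype cannot be told apart. Leaf markers were at a summed 32605 to 34770 TPM in WT against 30294 to 33273 TPM in CsPYL1-5m, and root markers at 164 to 209 TPM and 201 to 232 TPM, so the libraries of both genotypes held shoots and roots. Flower and pollen markers summed to 2.89 to 4.22 TPM in WT against 2.60 to 3.01 TPM in CsPYL1-5m. The labels do not say that replicates came from separate cultures, whereas the methods speak of independent experiments.

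Very few genes differed. With limma on log2(TPM + 0.5), 10 genes were called higher in CsPYL1-5m, which is 0.0512% of the genes tested, and 3 were called lower, which is 0.0154%. A call needed an adjusted p below 0.05 and a log2 difference above 1 in size. An adjusted p below 0.05 at any size was reached by 14 genes or 0.0717%, the additional gene being AT3G06680, a gene of the ribosomal L29e protein family with 150 ± 7.14 TPM in WT against 97.2 ± 5.56 TPM in CsPYL1-5m (SD, n = 3 each) and a log2 difference of -0.63. At an unadjusted p below 0.05, 4.08% of genes were higher and 4.63% lower, or 1700 genes (8.70%) together, and 3239 without WT replicate 2. The replicates of the genotypes did not overlap for 7.36% of genes in the higher direction and for 7.48% in the lower direction. The median log2 difference over all genes was -0.01 and the median standard error 0.11, and the 95% interval of the difference lay within 1 log2 unit of 0 on both sides for 97.4% of genes.

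**Figure D1:**
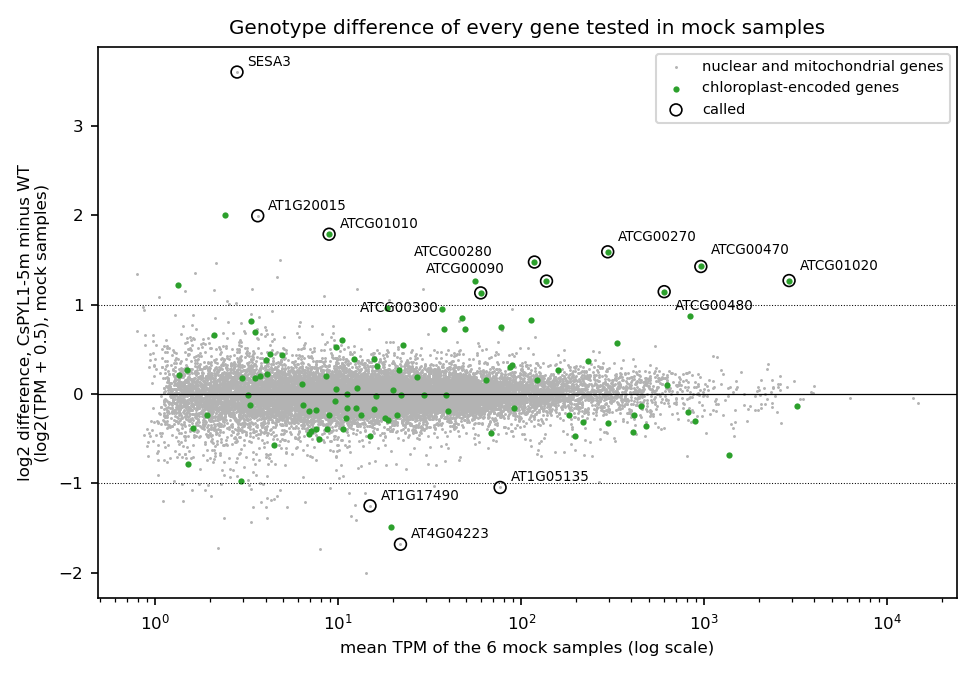
The plot of every gene tested shows the mean TPM of the 6 mock samples on a log axis against the log2 difference of CsPYL1-5m minus WT, with chloroplast-encoded genes in green and the 13 called genes circled. Most genes lie near 0, SESA3 stands highest at a fitted 3.60, and 8 of the 10 genes called higher are chloroplast-encoded.

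SESA3 (AT4G27160), which encodes a 2S seed storage albumin, was the gene with the largest difference. It occupies chr4:13611796-13612563 in the TAIR10.1 assembly, in a single exon on the plus strand. It was listed at 0 in all 3 WT samples and at 4.81, 6.03 and 5.91 TPM in the CsPYL1-5m samples. The reads recovered from the table were 0 in each WT library and 70, 83 and 85 in the CsPYL1-5m libraries. Taking 3 reads in a WT library as the floor, or 0.310 TPM at most, the mean of CsPYL1-5m was at least 18.0-fold higher. The fitted log2 difference was 3.60 with a standard error of 0.17 (adjusted p = 8.73e-05, limma). SESA3 passed the filter through CsPYL1-5m alone. With WT at 0 in all 3 samples, the WT values have no spread. The fitted value, its standard error and its p therefore depend on the pseudocount. The size of the fitted value is no estimate of the fold, and it ran from 2.71 to 6.84 over the alternatives.

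No other seed gene of the list was called. Of its 16 members only SESA3 and OLEO4, an oleosin of the oil body, passed the filter, and OLEO4 was at 2.43 ± 0.39 TPM in WT against 2.60 ± 0.11 TPM in CsPYL1-5m (SD, n = 3 each). SESA4, the neighbouring albumin gene, was at 0.449, 0.326 and 0.679 TPM in WT and at 0.998, 0.649 and 0.776 TPM in CsPYL1-5m, so the genotypes overlapped. SESA1 was at 0.228 TPM or less in every sample, SESA2 was at 0 in all CsPYL1-5m samples, and SESA5 was listed at 0 in all 6. The cruciferin genes CRA1, CRU2 and CRU3 and the late embryogenesis genes EM1 and EM6, both targets of ABI5 in seeds, also stayed under the filter. ABI3, the B3 factor of seed maturation, was at means of 0.050 and 0.023 TPM, and ABI4 was listed at 0 throughout. The 10 tested genes among the 12 on each side of SESA3 had log2 differences from -0.14 to 0.28, and 1 of them had an unadjusted p below 0.05. The vector pAlligator2 drives its GFP marker from a promoter of an Arabidopsis 2S albumin gene. Whether reads listed for SESA3 come from the endogenous gene or from the transgene was not tested.

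The upstream sequence of SESA3 is shown with those of RAB18 and RD29B, the ABA marker genes of which RAB18 encodes a dehydrin and RD29B a protein of unknown biochemical function that is induced by dehydration, to set a seed promoter beside promoters that answer to ABA. They are the 250 bases before the annotated gene start, read from the RefSeq TAIR10.1 genome, at chr4:13611546-13611795 on the plus strand for SESA3, chr5:26519448-26519697 on the minus strand for RAB18 and chr5:21236771-21237020 on the plus strand for RD29B. Capitals mark the ABRE core ACGTG on either strand and, in SESA3, also the RY element CATGCA on either strand.
SESA3: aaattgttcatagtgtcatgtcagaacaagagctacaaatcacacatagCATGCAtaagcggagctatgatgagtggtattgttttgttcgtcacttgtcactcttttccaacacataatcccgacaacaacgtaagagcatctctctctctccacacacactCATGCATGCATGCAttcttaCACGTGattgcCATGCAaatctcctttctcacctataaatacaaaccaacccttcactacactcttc
RAB18: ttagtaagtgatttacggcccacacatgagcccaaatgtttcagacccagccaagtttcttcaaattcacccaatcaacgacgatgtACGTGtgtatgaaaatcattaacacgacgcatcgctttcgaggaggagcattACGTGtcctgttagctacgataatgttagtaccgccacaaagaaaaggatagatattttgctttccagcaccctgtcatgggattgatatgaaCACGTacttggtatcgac
RD29B: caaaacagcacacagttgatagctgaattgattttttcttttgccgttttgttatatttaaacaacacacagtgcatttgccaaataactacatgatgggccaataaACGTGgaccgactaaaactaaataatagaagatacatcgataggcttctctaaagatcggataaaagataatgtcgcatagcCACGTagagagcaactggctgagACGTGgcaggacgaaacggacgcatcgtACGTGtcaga

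The SESA3 sequence held 4 RY elements and 1 ABRE core, counted without overlap, the RAB18 sequence 3 ABRE cores and the RD29B sequence 4. Of all promoters of protein-coding genes, 8.43% held at least 1 RY element and 22.9% at least 1 ABRE core in the same window, while 0.0583% held 3 or more RY elements and 1.10% held 3 or more ABRE cores. A match is a run of letters and not a shown binding site. The genotype difference did not follow the number of ABRE cores upward. The median log2 difference was -0.01 over 14378 tested genes with no ABRE core, -0.02 over 3450 with 1, -0.02 over 811 with 2 and -0.03 over 218 with 3 or more. Among the last, 3.67% were higher and 7.80% lower at an unadjusted p below 0.05, against 4.08% and 4.63% of all genes.

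RAB18 (AT5G66400) and RD29B (AT5G52300) themselves were at low levels in both genotypes. RAB18 was at 2.96, 0.908 and 0.874 TPM in WT and at 1.38, 2.25 and 0.7995 TPM in CsPYL1-5m. RD29B was at 0.463, 0.069 and 0.466 TPM in WT and at 0.195, 0.129 and 0.271 TPM in CsPYL1-5m. For both genes the ranges of the genotypes overlapped, and neither reached 1 TPM in all 3 replicates of a genotype.

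No ABA gene was called between the genotypes. The 7 ABA lists (receptors, clade A phosphatases, SnRK2 kinases, transcription factors, synthesis, breakdown with conjugation and transport, and ABA-induced genes) held 96 genes, of which 70 were tested and 0 were called by limma. Of all genes tested, 0.0512% were called higher and 0.0154% lower, so 70 genes are too few to tell 0 calls from that share. At an unadjusted p below 0.05, 1 was higher and 7 were lower, or 11.4% together against 8.70% of all genes. The count of lower genes was 2 without CsPYL1-5m replicate 3, 3 without WT replicate 3, 4 without CsPYL1-5m replicate 1, 11 without WT replicate 1, 12 without WT replicate 2 and 13 without CsPYL1-5m replicate 2. With limma voom on the recovered reads, 0 of 68 were called, and 2 were higher and 6 lower at that unadjusted p. The median log2 difference of the 70 genes was -0.09, against -0.01 for all genes. The 95% intervals give the room left for a basal ABA response in the tested genes alone. The upper bound was below 1 log2 unit for all 70 genes, with 0.58 as the highest, and the interval reached -1 or lower for 5 genes. RAB18, RD29B and HAI1, which are induced by ABA, stayed under the filter and have no interval. Near 1 TPM the pseudocount of 0.5 also draws a log2 difference towards 0.

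**Figure D2:**
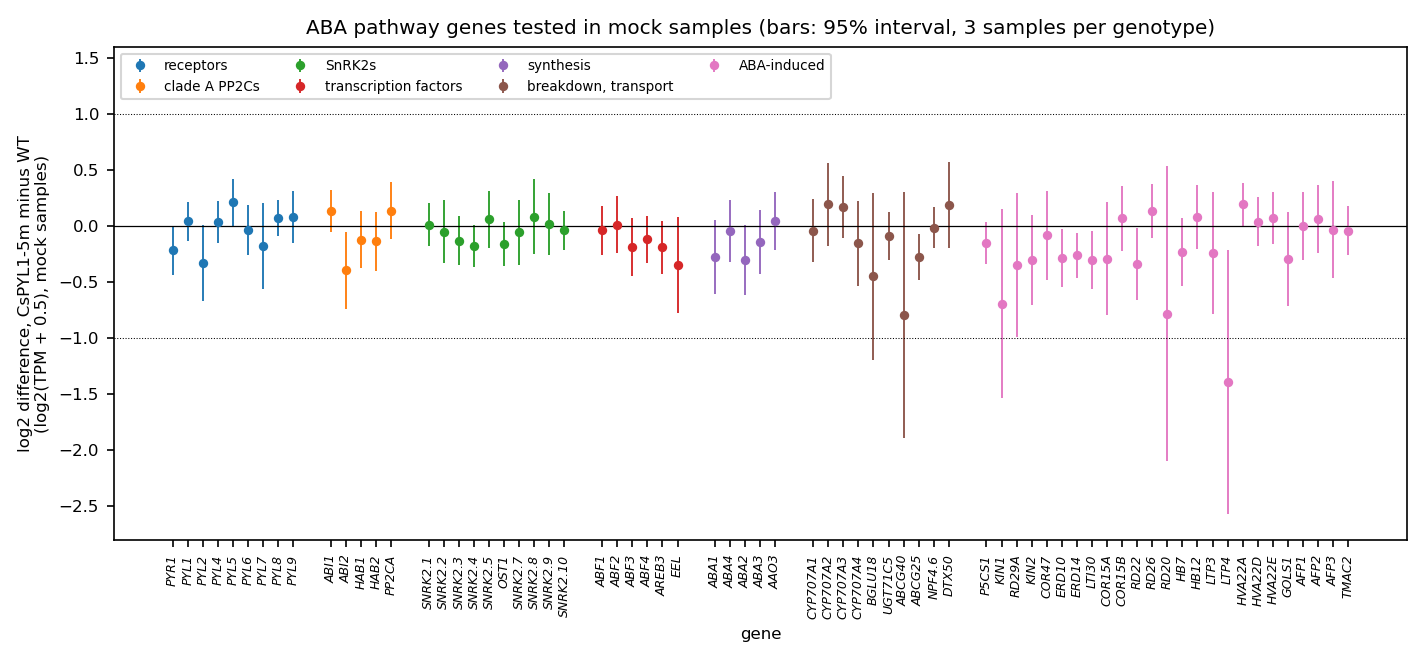
The plot of ABA pathway genes gives the log2 difference of CsPYL1-5m minus WT in mock samples for each of the 70 tested genes, coloured by role, with bars for the 95% interval from 3 samples per genotype and dotted lines at 1 and -1. No upper bound reaches 1, and LTP4 has the lowest value at -1.39.

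Of the 14 Arabidopsis ABA receptors, 9 were tested and their median log2 difference was 0.04. PYL1, the Arabidopsis receptor that gives CsPYL1 its name, was at 32.2, 34.8 and 32.5 TPM in WT against 33.8, 34.3 and 34.4 TPM in CsPYL1-5m, with a log2 difference of 0.04 and an interval from -0.13 to 0.21. The most abundant receptor gene per length was PYL4, at 362 ± 11.4 TPM in WT against 372 ± 27.5 TPM in CsPYL1-5m (SD, n = 3 each). PYR1, the first of the dimeric receptors, had a log2 difference of -0.22 and PYL2, another dimeric receptor, of -0.33, and the genotypes overlapped in both. PYL5, a monomeric receptor, was at 55.2, 64.2 and 51.9 TPM in WT and at 64.8, 65.1 and 68.2 TPM in CsPYL1-5m. These PYL5 values did not overlap, and the difference of 0.21 had an adjusted p of 0.56 (limma). PYL6, PYL7, PYL8 and PYL9 had log2 differences of -0.03, -0.18, 0.07 and 0.08. PYL3, PYL10, PYL11, PYL12 and PYL13 had means under 0.5 TPM in both genotypes, PYL10 and PYL13 being listed at 0 in most samples.

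Of the 9 clade A phosphatases, which act as coreceptors and are themselves induced by ABA, 5 were tested with a median log2 difference of -0.12. PP2CA was at 17.6, 15.3 and 20.7 TPM in WT and at 19.1, 20.4 and 19.3 TPM in CsPYL1-5m, so the genotypes overlapped. ABI1 was at 37.3, 35.2 and 40.9 TPM in WT and at 41.7, 41.8 and 41.0 TPM in CsPYL1-5m, a log2 difference of 0.13. ABI2 was at 5.26, 3.93 and 4.65 TPM in WT and at 3.22, 3.97 and 2.98 TPM in CsPYL1-5m, with a log2 difference of -0.39, an unadjusted p of 0.029 and an adjusted p of 0.51 (limma). HAB1 and HAB2 had log2 differences of -0.12 and -0.13. HAI1, which is among the phosphatase genes most strongly induced by ABA, was at 0.713, 0.383 and 0.399 TPM in WT and at 0.298, 0.572 and 0.246 TPM in CsPYL1-5m. AHG1, HAI2 and HAI3 were lower still and, with HAI1, did not pass the filter.

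All 10 SnRK2 kinases were tested, and their log2 differences ran from -0.18 to 0.09 with 0 of them at an unadjusted p below 0.05. SNRK2.2, SNRK2.3 and OST1, the kinases that carry ABA signalling, had log2 differences of -0.05, -0.13 and -0.16. OST1, which drives stomatal closure, was at 14.5, 15.4 and 15.2 TPM in WT and at 13.8, 13.8 and 12.7 TPM in CsPYL1-5m, without overlap, and its adjusted p was 0.64 (limma). Of the 10 ABA transcription factors, 6 were tested and 5 of these had a negative difference, with a median of -0.15. ABF1, ABF2, ABF3 and ABF4, the factors that bind the ABRE in seedlings, had log2 differences of -0.04, 0.01, -0.19 and -0.12. ABI5, a seed and germination factor, was at means of 1.02 and 0.83 TPM and passed the filter in neither genotype.

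The genes that set the level of ABA showed no call either. ABA1, the zeaxanthin epoxidase at the start of ABA synthesis, was at 71.9, 49.3 and 59.5 TPM in WT against 57.5, 43.8 and 46.8 TPM in CsPYL1-5m, with overlap. NCED3, the dioxygenase of the rate-limiting step under drought, was at 0.651, 0.629 and 0.998 TPM in WT against 0.542, 0.675 and 0.607 TPM in CsPYL1-5m. The other tested synthesis genes ABA2, ABA3, ABA4 and AAO3 had log2 differences from -0.30 to 0.05. The 8′-hydroxylase genes CYP707A1, CYP707A2, CYP707A3 and CYP707A4, which break ABA down, had log2 differences of -0.04, 0.20, 0.17 and -0.15. ABCG25, an exporter of ABA, was at 11.9, 12.5 and 12.98 TPM in WT and at 9.83, 10.2 and 10.7 TPM in CsPYL1-5m, without overlap, with a log2 difference of -0.27 and an adjusted p of 0.46 (limma).

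The list of ABA-induced genes held 37 genes, of which 29 were tested, 0 were called and 0 were higher at an unadjusted p below 0.05, while 6 were lower. The 6 are 20.7% of the tested members, against 4.63% of all genes lower. Those 6 became 0 without CsPYL1-5m replicate 3, 2 without WT replicate 3 and 3 without CsPYL1-5m replicate 1. Their median log2 difference was -0.15, and 10 differences were positive and 19 negative. The mean log2(TPM + 0.5) over the 29 genes was 4.16, 4.20 and 4.32 in the WT samples and 4.002, 4.24 and 3.85 in the CsPYL1-5m samples, so the genotypes overlapped. LTP4, a lipid transfer protein gene, was at 5.49, 1.44 and 3.85 TPM in WT against 0.954, 2.29 and 0.193 TPM in CsPYL1-5m, with the lowest difference of the list at -1.39 (adjusted p = 0.51, limma). ABI2, RD22, LTI30, ERD10 and ERD14, the last 3 of them dehydrins, made up the rest of the 6. ERD14 was at 231, 202 and 207 TPM in WT and at 184, 187 and 163 TPM in CsPYL1-5m, without overlap, a log2 difference of -0.26. RD22 had a log2 difference of -0.34, LTI30 of -0.30 and ERD10 of -0.28. P5CS1, the enzyme of proline synthesis, was at 20.9, 22.7 and 20.5 TPM in WT against 19.9, 18.8 and 18.9 TPM in CsPYL1-5m. KIN1, a cold and ABA-induced gene, was at 5.31, 17.1 and 15.1 TPM in WT against 5.67, 9.09 and 5.93 TPM in CsPYL1-5m, and its interval from -1.53 to 0.15 was among the widest. KIN1 has a near-identical neighbour, KIN2, and its reads are uncertain for that reason. MAPKKK18, a kinase gene used as a reporter of ABA signalling, was at 1.21, 1.45 and 0.929 TPM in WT against 0.709, 1.37 and 0.916 TPM in CsPYL1-5m. After correction of each sample for gene length and GC content, the median of the list was -0.07, with 1 gene higher and 5 lower at an unadjusted p below 0.05.

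Genes of guard cells and of the stomatal lineage were at lower values in CsPYL1-5m, with no gene called. All 14 were tested, 13 had a negative difference, and the median was -0.23. At an unadjusted p below 0.05, 5 were lower and 0 higher, or 35.7% against 4.63% of all genes lower. The mean log2(TPM + 0.5) over the 14 genes was 3.20, 3.06 and 3.33 in WT and 2.97, 2.86 and 2.95 in CsPYL1-5m, so the genotypes did not overlap. SLAC1, the anion channel that OST1 opens in stomatal closure, was at 1.48, 1.03 and 1.20 TPM in WT and at 0.646, 0.653 and 0.426 TPM in CsPYL1-5m, a log2 difference of -0.69 with a standard error of 0.20 and an adjusted p of 0.40 (limma). ALMT12, another anion channel of guard cells, had a log2 difference of -0.48. FAMA, the bHLH factor that completes guard cell formation, was at 15.1, 17.3 and 19.1 TPM in WT and at 13.1, 14.4 and 12.2 TPM in CsPYL1-5m, a log2 difference of -0.36. SLAC1 overlaps annotated neighbours (AT1G12470 and AT1G04953), so its reads are uncertain, as are those of ABI1, RAB18, P5CS1 and CASP1, each of which overlaps 1 other gene. SPCH, which starts the lineage, differed by -0.38 and HT1, a kinase of the CO2 response, by -0.36. With the length and GC correction the median was -0.27 and 6 genes were lower. In bulk tissue, fewer cells of a type and less RNA per cell cannot be told apart.

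Beside these values, leaf markers had a median log2 difference of -0.10 with 0 of 5 at an unadjusted p below 0.05, and root markers one of 0.11 with 2 of 8 higher. The root share is 25%, against 4.08% of all genes higher. Of the 8 tested root markers, 5 had positive and 3 negative differences. Their mean log2(TPM + 0.5) was 4.01, 3.93 and 4.24 in WT and 4.15, 4.21 and 4.12 in CsPYL1-5m, so the genotypes overlapped. The 2 root genes were CASP1 and CASP2, membrane proteins of the Casparian strip. CASP1 was at 67.4, 51.9 and 73.3 TPM in WT and at 75.4, 93.6 and 77.5 TPM in CsPYL1-5m, and CASP2 at 24.6, 18.3 and 27.8 TPM and at 28.7, 30.9 and 29.6 TPM. Neither overlapped between genotypes, with log2 differences of 0.36 and 0.35 and adjusted p of 0.51 and 0.53 (limma). The part of tissue makeup in the guard cell values was not tested.

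Growth genes gave no call in either direction. The seed storage list and the chloroplast-encoded genes are the lists that held called genes. The other lists, which are not only of growth, held 809 tested genes together. Limma called 0 of these, as did limma voom for the 778 of them with recovered reads. This follows in part from which lists were left out. Of all genes tested, 0.0512% were called higher and 0.0154% lower, so 809 genes are too few to tell 0 calls from that share. Expansins, which loosen cell walls, had a median log2 difference of -0.05 over 17 tested genes with 0 higher and 1 lower at an unadjusted p below 0.05, the lower one being EXP3 at -0.31. Xyloglucan endotransglucosylases, which cut and rejoin wall polysaccharides, had a median of 0.11 over 28 genes with 5 higher and 1 lower. That is 21.4% in both directions together, against 8.70% of all genes. XTH17, XTH5 and XTH19 were the highest among them at 0.42, 0.37 and 0.33, and XTH19 was at 46.3, 42.4 and 51.8 TPM in WT and at 58.9, 56.2 and 60.7 TPM in CsPYL1-5m. The auxin-induced SAUR genes had a median of 0.01 over 51 genes with 2 higher and 2 lower, and the Aux/IAA and GH3 genes of auxin response and conjugation -0.07 over 26 genes with 0 higher and 1 lower, IAA13.

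Cyclins and B-type cyclin-dependent kinases, which drive the cell cycle, had a median log2 difference of 0.05 over 30 tested genes, with 2 higher and 0 lower at an unadjusted p below 0.05. CYCD3;3 was at 27.1, 29.4 and 24.6 TPM in WT and at 30.8, 35.8 and 31.9 TPM in CsPYL1-5m, and CDKB1;1 at means of 6.63 and 8.18 TPM. Gibberellin metabolism, receptor and DELLA genes had a median of -0.03 over 15 genes with 0 at an unadjusted p below 0.05, with RGA at 41.5 ± 3.59 TPM in WT against 41.1 ± 1.88 TPM in CsPYL1-5m (SD, n = 3 each). Brassinosteroid genes had a median of -0.05 over 11 genes with 0 higher and 1 lower, BKI1, an inhibitor of the receptor BRI1, at -0.31. Type-A response regulators, which are induced by cytokinin and dampen its signal, had a median of 0.15 over 7 genes, all with positive differences. ARR3 was the 1 member past an unadjusted p of 0.05, at 5.01, 5.30 and 5.41 TPM in WT against 7.29, 6.39 and 6.56 TPM in CsPYL1-5m. Nuclear photosynthesis genes had a median of -0.06 over 41 genes with 0 higher and 3 lower, PSAK, LHCB6 and LHCB2.3.

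**Figure D3:**
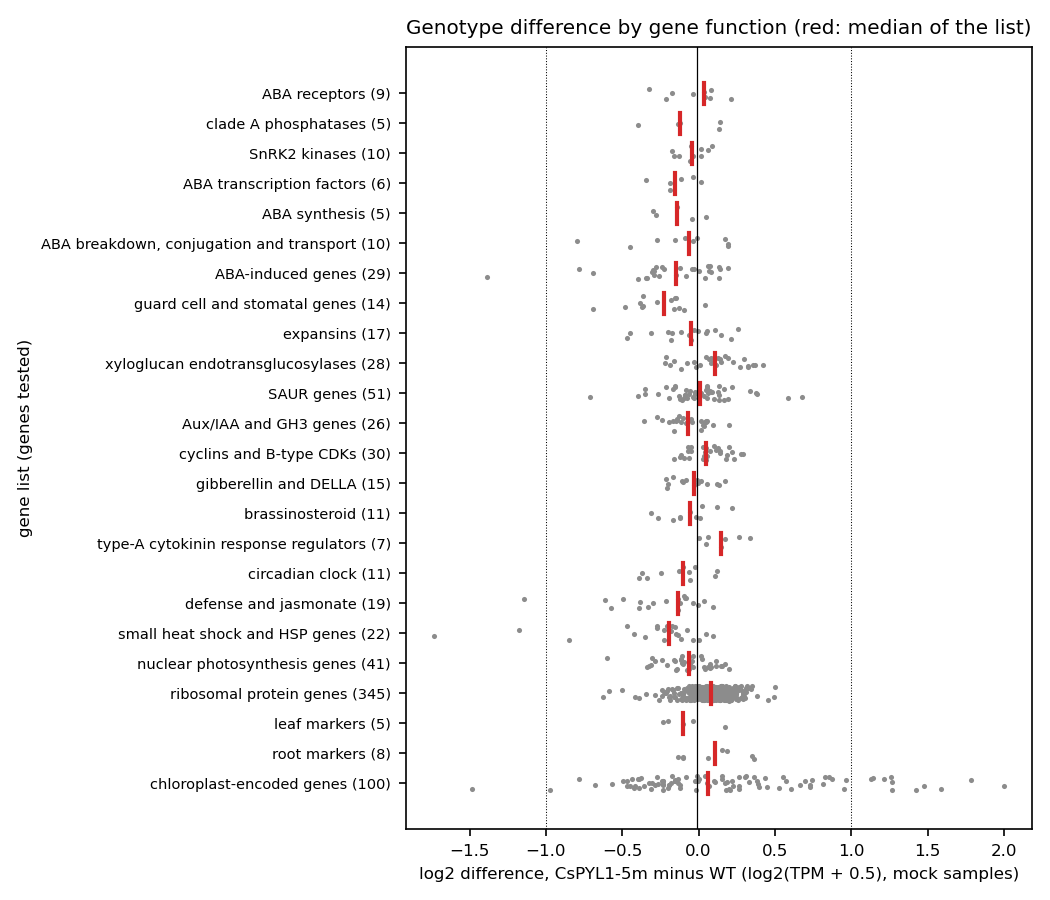
The plot by gene function shows the log2 difference of each tested gene as a grey point and the median of each list drawn as a red bar (the seed storage, cold, flower and mitochondrial lists are not drawn), with the number of genes tested in parentheses, a black line at the median of all genes and dotted lines at 1 and -1. The medians drawn lie between -0.23 for guard cell genes and 0.15 for type-A response regulators, and chloroplast-encoded genes spread most widely.

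Of 382 genes for ribosomal proteins, 345 were tested, the median log2 difference was 0.08, and 42 were higher and 9 lower at an unadjusted p below 0.05, which is 14.8% of the tested members in both directions together, against 8.70% of all genes. AT4G00810 was the largest of the higher ones, at 135, 147 and 141 TPM in WT against 190, 187 and 220 TPM in CsPYL1-5m, a log2 difference of 0.49. The list mean of log2(TPM + 0.5) was 6.75, 6.94 and 6.88 in WT and 6.94, 6.86 and 6.998 in CsPYL1-5m, so the genotypes overlapped. At an unadjusted p below 0.05, 16.3% of nuclear protein-coding genes of 500 to 1000 bp of exons differed, 245 higher and 109 lower. The ribosomal list was not set against genes of matched length. After the correction for gene length and GC content the median of the ribosomal list was 0.05, with 29 higher and 17 lower. Among the clock genes PRR7, a repressor in the morning loop, had the only unadjusted p below 0.05, with a log2 difference of -0.37. In the list of defence and jasmonate genes 0 were higher and 5 lower of 19 at an unadjusted p below 0.05, or 26.3% against 4.63% of all genes lower. PR2, a glucanase gene of the salicylic acid response, led them in size at -1.14. The PR2 values in WT were 3.40, 15.0 and 2.85 TPM, so that WT replicate 2 was far above, and the other WT samples just above, the CsPYL1-5m samples at 1.43, 2.495 and 2.75 TPM. JAZ6, a repressor of jasmonate signalling, was at 60.3, 63.2 and 61.0 TPM in WT and at 47.6, 47.6 and 45.9 TPM in CsPYL1-5m, a log2 difference of -0.38 with an adjusted p of 0.19 (limma). HSP17.6II, a small heat shock protein gene, was at 17.7, 8.90 and 10.9 TPM in WT and at 2.28, 5.20 and 2.85 TPM in CsPYL1-5m, a log2 difference of -1.73 with an adjusted p of 0.16 (limma).

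The differences of nuclear genes varied with gene length, and more strongly among the WT samples than between genotypes. The median log2 difference between genotypes was 0.06 for protein-coding genes of 500 to 1000 bp of exons, 0.00 for those of 1500 to 2000 bp and -0.14 for those of 4000 bp or more. In that longest class each CsPYL1-5m sample was below the WT mean, by medians of -0.12, -0.15 and -0.15. WT replicate 2 was at -0.39 against the mean of the other WT samples, while WT replicates 1 and 3 were at 0.19 and 0.21. Of the 817 longest genes, 0 were higher and 48 lower at an unadjusted p below 0.05. In the class of 500 to 1000 bp, 245 were higher and 109 lower among 2172. By GC content the medians fell from 0.02 at 36 to 38% to -0.05 at 46% or more. When recovered reads of every library were thinned to the depth of the shallowest, the median of all genes was -0.01, and 4 of the 5 called genes with recovered reads were called, including SESA3.

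**Figure D4:**
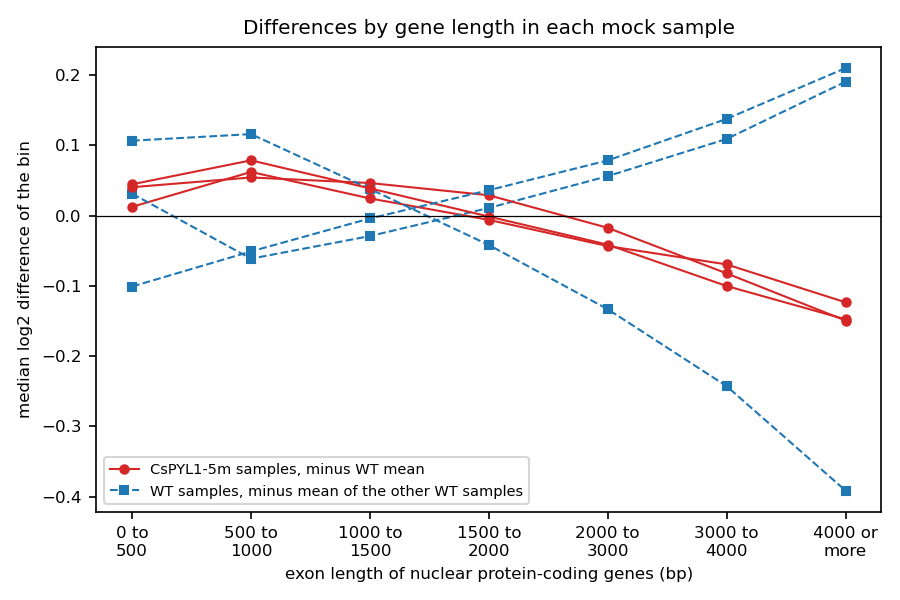
The plot of differences by gene length gives the median log2 difference of nuclear protein-coding genes in each of 7 classes of exon length, for each CsPYL1-5m sample minus the WT mean in red and for each WT sample minus the mean of the other WT samples in blue. The red lines fall together to -0.12 and -0.15 at 4000 bp or more, and the blue line of WT replicate 2 falls further, to -0.39.

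Chloroplast-encoded genes made up 8 of the 10 genes called higher. These were 8 of the 100 tested chloroplast-encoded genes, where 0.0512% of all genes tested were called higher. They are given here by identifier. ATCG01010 was at 3.41, 3.43 and 4.38 TPM in WT and at 14.1, 13.5 and 14.6 TPM in CsPYL1-5m, a log2 difference of 1.79 with a standard error of 0.12. ATCG00270 was at 139, 151 and 151 TPM in WT and at 397, 526 and 416 TPM in CsPYL1-5m, a difference of 1.59. ATCG00480 was at 342, 376 and 412 TPM in WT and at 879, 831 and 783 TPM in CsPYL1-5m, a difference of 1.14. In each of the 8 called genes the lowest CsPYL1-5m sample lay well above the highest WT sample, which the call itself makes likely. Of the 100 tested chloroplast-encoded genes, 23 did not overlap in the higher direction and 7 in the lower, against 7.36% and 7.48% of all genes. ATCG01020, the most abundant of the 8 per length, was at 1398, 1970 and 1781 TPM in WT and at 4288, 4134 and 3869 TPM in CsPYL1-5m. ATCG00280, ATCG00470, ATCG00090 and ATCG00300 had log2 differences of 1.48, 1.43, 1.26 and 1.13. These 4 genes and ATCG01020 each lost the call in 4 to 7 of 16 alternatives.

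The plastid genome did not move as a block. Of its 133 identifiers, 100 were tested, 53 had positive and 47 negative differences, and the median log2 difference was 0.06. At an unadjusted p below 0.05, 27 were higher and 8 lower, or 35% together against 8.70% of all genes. Some runs of neighbouring identifiers, picked after the values were seen, had differences of the same sign: ATCG00270, ATCG00280, ATCG00290, ATCG00300 and ATCG00310 were at 1.59, 1.48, 0.83, 1.13 and 1.998, and ATCG00450, ATCG00460, ATCG00470 and ATCG00480 at 0.73, 0.97, 1.43 and 1.14. Of these, ATCG00310 was near the filter, at 0, 1.05 and 1.097 TPM in WT and at 2.23, 3.93 and 6.02 TPM in CsPYL1-5m. ATCG00310 passed the filter through CsPYL1-5m alone and was not called. Its difference had a standard error of 0.46 and an adjusted p of 0.33 (limma), so its size is uncertain. ATCG00740, ATCG00750, ATCG00760, ATCG00770, ATCG00780 and ATCG00790 were at -0.47, -0.31, -0.36, -0.42, -0.31 and -0.68. Other neighbours went apart, as did ATCG00090, ATCG00100 and ATCG00110 at 1.26, 0.18 and -0.97, and ATCG00320 at -0.15 beside ATCG00310. ATCG00790 was at 1401, 1801 and 1879 TPM in WT and at 1132, 960 and 1059 TPM in CsPYL1-5m, without overlap (adjusted p = 0.19, limma). Chloroplast-encoded genes took 1.54 to 1.68% of TPM in WT against 1.86 to 2.08% in CsPYL1-5m. Genes encoded in the mitochondrion, of which 29 were tested, had a median of 0.01 with 2 higher and 2 lower at that p and 0 called. The part of depth, library preparation or seedling stage in the chloroplast values was not tested.

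**Figure D5:**
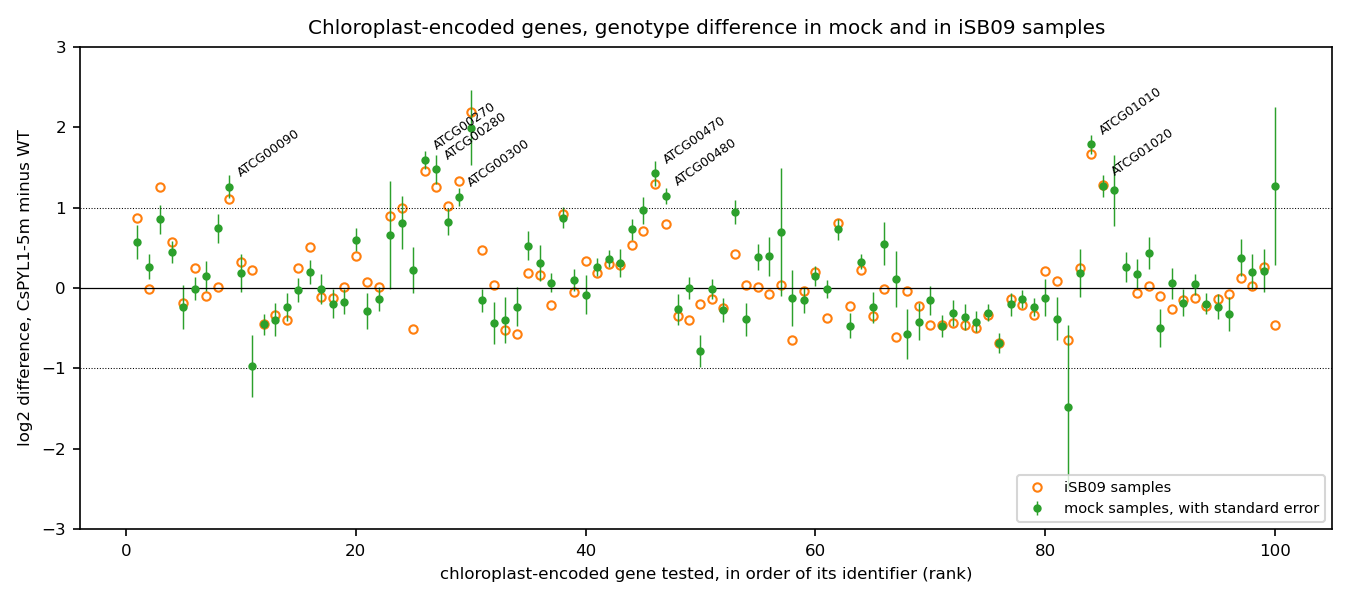
The plot of chloroplast-encoded genes shows the log2 difference of CsPYL1-5m minus WT for the 100 tested genes in the order of their identifiers, filled green points with standard errors for mock samples and open orange points for iSB09 samples, with the 8 called genes named. The called genes stand above 1 in mock samples and between 0.80 and 1.67 in iSB09 samples, and some runs of neighbours lie on the same side of 0.

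The other called genes are transcribed from the nucleus. AT1G20015, a snoRNA gene at chr1:6941285-6941373, was at 0.868, 1.68 and 0.875 TPM in WT against 4.75, 8.78 and 4.80 TPM in CsPYL1-5m, which rests on 1, 2 and 1 reads against 8, 14 and 8 reads. The ratio of a count this low is uncertain, and the call was lost in 17 of 20 alternatives. AT4G04223, a non-coding RNA gene at chr4:2036511-2037816, was at 35.9, 23.8 and 41.4 TPM in WT and at 9.04, 9.05 and 11.9 TPM in CsPYL1-5m, a log2 difference of -1.68, and lost the call in 9 of 20 alternatives. AT1G17490, annotated as an epidermal patterning factor-like protein at chr1:6008437-6009420, belongs by name to the family of secreted peptides that space stomata. It was at 19.6, 23.3 and 20.6 TPM in WT and at 8.42, 8.13 and 9.26 TPM in CsPYL1-5m, a log2 difference of -1.25 with a standard error of 0.10 (adjusted p = 0.0026, limma). AT1G17490 overlaps IQD7 (AT1G17480) on the opposite strand, and the authors counted reads without regard to strand, so reads of the shared stretch cannot be assigned to either gene. IQD7 was at 4.24 ± 0.312 TPM in WT against 3.83 ± 0.434 TPM in CsPYL1-5m (SD, n = 3 each), a log2 difference of -0.13. AT1G05135, a transcribed pseudogene at chr1:1477487-1478900, was at 89.0, 124 and 97.7 TPM in WT and at 47.8, 50.04 and 50.7 TPM in CsPYL1-5m, a difference of -1.04, and lost the call in 12 of 20 alternatives. The tested genes within 12 genes on each side of AT1G17490 numbered 17, with log2 differences from -0.34 to 0.19.

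The genotype differences were present in samples the mock comparison did not use. In the 6 iSB09 samples 12 of the 13 called genes differed in the same direction with an adjusted p below 0.05 (limma), where 51.0% of the 19656 genes tested there reached that p in one direction or the other, and AT1G20015 did not pass the filter there. SESA3 was at 0 in all 3 WT samples with iSB09 and at 2.67, 3.23 and 4.11 TPM in CsPYL1-5m. AT1G17490 was at 17.8, 24.7 and 23.0 TPM in WT and at 7.40, 7.20 and 7.78 TPM in CsPYL1-5m, a log2 difference of -1.47 against -1.25 in mock samples. AT4G04223 differed by -2.10 and AT1G05135 by -0.84. ATCG01010 differed by 1.67, ATCG00270 by 1.45 and ATCG00480 by 0.80. Of the 34 chloroplast-encoded genes with an unadjusted p below 0.05 in mock samples that were also tested with iSB09, 33 had the same sign there, and 22 of them an adjusted p below 0.05. That adjusted p was reached by 51.0% of all genes with iSB09. Of all 98 chloroplast-encoded genes tested in both, 38 were positive in both, 35 negative in both and 25 of opposite sign. The depth of the libraries differed by genotype in the iSB09 samples as well.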

How the data were processed

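RNA-seq of 12 seedling samples was available, of which 3 mock-treated WT and 3 mock-treated CsPYL1-5m samples entered the main comparison, grouped by the sample titles. The authors used cutadapt for trimming, HISAT2 for mapping to TAIR10, and HTSeq-count for counting unique pairs in Araport11 genes, and deposited TPM values. The authors also deposited RPKM values of the same genes, which differ from TPM by a constant factor per sample. No count table was used. In R 4.3.3, limma 3.58.1 was applied to log2(TPM + 0.5) with a variance trend. Benjamini-Hochberg adjustment ran over all genes tested, which required 1 TPM in all 3 replicates of a genotype.

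Read depth was recovered from the steps of the RPKM values: with annotated exon lengths 72.3% of genes came out at whole reads within 0.02 in all samples, and lengths were fitted for 7607 more. Recovered reads entered alternatives only, and floors of 3 reads cover counting error only. Intervals are 95% intervals of the limma fit. Of 37336 identifiers, 37051 matched TAIR10.1, and 285 had organelle identifiers. Replicates differed by more than sampling noise. The test was checked on simulated data.

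The members, the 28 gene lists and the alternatives were chosen with earlier results of these data known, and 3 further lists after the values were seen. Names matched by pattern were taken as matched, except that some genes with other annotated products were dropped from the nuclear photosynthesis and the Aux/IAA and GH3 lists. Single members of the pattern lists may therefore not belong to them. Named were the called genes, the core ABA genes and, in other lists, up to 4 members with an unadjusted p below 0.05. Tables were summarised in pandas 2.3.3 and numpy 2.4.6 under Python 3.11.15, and matplotlib 3.10.9 drew the plots. Genotype differences were compared between mock and iSB09 samples with a limma interaction term over all 12 samples. Alternatives were pseudocounts of 0.1 and 1, other filters and scalings, the RPKM table, no trend, a replicate block, a length and GC correction, voom, thinning, nuclear genes only, one fit of 12 samples, and leaving out each sample.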

Additional observations from a re-analysis of the deposited data

Results flagged for a closer look

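The genotype difference was compared between iSB09 and mock samples for the 13 called genes by an interaction term of limma over all 12 samples, and its adjusted p was below 0.05 for 2 of them. The genes were chosen by their difference in mock samples, which by itself makes a smaller difference likely in other samples. For AT1G20015 the log2 difference of CsPYL1-5m minus WT was lower by 2.43 in iSB09 samples than in mock samples, an interaction of -2.43 with a standard error of 0.54 (adjusted p = 0.0053, limma). Its iSB09 values were 0.872, 3.52 and 1.76 TPM in WT and 1.82, 1.27 and 0.725 TPM in CsPYL1-5m, so the genotypes overlapped there. In mock samples it had passed the filter through CsPYL1-5m alone, on 1, 2 and 1 reads in WT and 8, 14 and 8 reads in CsPYL1-5m. For SESA3 the interaction was -0.68 with a standard error of 0.23 (adjusted p = 0.042, limma). The CsPYL1-5m samples were at 2.67 to 4.11 TPM with iSB09 and at 4.81 to 6.03 TPM without. All WT samples were at 0, so the fitted size of the interaction, its standard error and its p depend on the pseudocount.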

How the results depend on the processing

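The total of 13 called genes fell to 6 with no filter and 7 without the variance trend. It was 4 after thinning to equal depth, and 2 each with nuclear protein-coding genes only, with voom, with the length and GC correction and with that correction plus the replicate block. Chloroplast genes are left out by construction in all of these last settings, thinning included, which tested 5 of the 13 called genes. The total was 16 with the replicate block alone, which kept all 13. Leaving out each sample gave 5 to 15, with 5 without WT replicate 3 or without CsPYL1-5m replicate 1 or 2, 7 without CsPYL1-5m replicate 3, and 15 without WT replicate 2. The calls of SESA3 and AT1G17490 were kept in all 21 alternatives, and those of ATCG01010, ATCG00270 and ATCG00480 in all 16 that include organelle genes. The other 8 called genes lost the call in 4 to 17 alternatives, and none reversed. AT1G20015 lost it in 17 of 20, AT1G05135 in 12 of 20 and AT4G04223 in 9 of 20. The cause was not tested. No ABA list gained a call in any of the 21 alternatives, and the median of the receptors ran from -0.0202 to 0.0686 (both ends from leaving out 1 sample, CsPYL1-5m replicate 2 and WT replicate 2) and of the ABA-induced genes from -0.20 to -0.03 over them. For other lists, 9 of the alternative medians moved by more than the spread of samples, all in the clock, gibberellin and brassinosteroid lists. The 12 genes that also differed with iSB09 were 2 with nuclear protein-coding genes only. Same-numbered samples of the genotypes correlated at 0.10, -0.02 and 0.07 in their deviations, which does not establish a pairing, although the methods speak of independent experiments and the labels do not say whether a number marks one. With the replicate block the ABA lists had 12 genes lower at an unadjusted p below 0.05 in place of 7. Genes under 1 TPM, such as RD29B and HAI1, were limited by depth.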

Other observations

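Genes of the cell wall and of the cuticle with small differences were looked at after the values were seen, so they carry no test beyond the fit across all genes. Of 56 genes with an extensin product, which are hydroxyproline-rich proteins that are crosslinked in the wall, 40 were tested, with a median log2 difference of -0.18. At an unadjusted p below 0.05, 15 were lower and 3 higher, where 4.63% of all genes were lower and 4.08% higher, and 0 were called. EXT4 was at 869, 1253 and 870 TPM in WT and at 580, 607 and 634 TPM in CsPYL1-5m, a log2 difference of -0.69. AT4G08400 was at 36.9, 41.8 and 51.5 TPM in WT and at 23.9, 25.1 and 24.9 TPM in CsPYL1-5m, a difference of -0.79 (adjusted p = 0.093, limma). Extensin genes have repeats and near-identical copies, and only uniquely mapped pairs were counted, so single members are uncertain.

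Of 21 genes for 3-ketoacyl-CoA synthases, which elongate the fatty acids of waxes and suberin, 15 were tested with a median log2 difference of -0.26, and 8 were lower and 0 higher at an unadjusted p below 0.05, against 4.63% of all genes lower. KCS6, the main condensing enzyme of cuticular wax, was at 275, 280 and 233 TPM in WT and at 192, 187 and 171 TPM in CsPYL1-5m, a difference of -0.52 (adjusted p = 0.19, limma). KCS19 was at 27.4, 27.4 and 29.4 TPM in WT and at 19.6, 19.2 and 21.4 TPM in CsPYL1-5m. With the length and GC correction, the medians were -0.16 for extensins and -0.24 for 3-ketoacyl-CoA synthases. The 6 nuclear genes for plastid sigma factors, which direct the plastid-encoded RNA polymerase to promoters, were also looked at after the values were seen. All had negative differences, with a median of -0.20 and 1 of them, SIGA, at an unadjusted p below 0.05. Their mean log2(TPM + 0.5) was 5.15, 4.96 and 5.04 in WT and 5.03, 4.70 and 4.89 in CsPYL1-5m, so the genotypes overlapped. Small nucleolar RNA genes, of which 108 were tested, had a median of 0.24. At an unadjusted p below 0.05, 29 were higher and 2 lower, against 4.08% and 4.63% of all genes. Their median standard error was 0.26, against 0.11 for all genes. AT1G20015, the 1 of them that was called, is 89 bases long and rested on 1, 2 and 1 reads in WT. The part of library depth in these values was not tested.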
